A study of Mus musculus with 30 samples.

Results

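Abundant but short-lived mRNAs were examined in cultured mouse spermatogonial stem cells (SSCs). These were the genes with an FPKM (fragments per kilobase of transcript, scaled to the depth of the library) of at least 40 in both sequenced lines and an mRNA half-life of at most 150 min in both. Symbols starting with Zfp, Klf, Id, Fos, Jun, Myc, Slc, Rnf, Trim, Usp or Srsf were left out. Of 13904 genes with an FPKM, 2806 reached 40 in both lines, and 1898 of these had a half-life. After the symbols were left out, 1808 genes remained, of which 54 were at or below 150 min in both lines and are called members here. The members are 2.99% of the 1808 genes. Another 1615 genes were above 150 min in both lines and served as the comparison genes, and 139 lay on different sides of the limit.

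RNA-seq was performed on 1 library of a Nanos2TAG/+ line (line 4) and 1 library of a Nanos2TAG/TAG line (line 5). Half-lives came from SLAM-seq of the same lines, in which RNA is labelled with 4-thiouridine (4SU) and followed through a chase of 0, 30, 60, 120, 540 and 1440 min, with 12 libraries per line. The SSC lines were derived from testes of young mice and grown on fibroblast feeders. The study states that the cells for RNA-seq and SLAM-seq were sorted, with gates that separate SSCs from feeder cells. NANOS2 carries an epitope tag on 1 allele in line 4 and on both alleles in line 5, so that neither line lacks NANOS2. Each genotype is 1 line, the RNA of the RNA-seq libraries was extracted with QIAzol in line 4 and with Trizol in line 5, and genotype, line and reagent cannot be told apart.

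The level of an mRNA at steady state is set by how fast it is made and how fast it is lost. An mRNA that is both abundant and short-lived has to be synthesised at a high rate, and its level can follow a change in transcription or decay within a short time. In many cell types the mRNAs of transcription factors, cytokine feedback inhibitors and other regulators turn over fast, whereas those of ribosomal proteins and metabolic enzymes persist. Sequences in the 3′ untranslated region (3′ UTR) contribute to decay. AU-rich elements are bound by proteins such as ZFP36L1, and Pumilio proteins bind a UGUA-containing element. NANOS proteins, including NANOS2 of the male germline, act with Pumilio and recruit the CCR4-NOT deadenylase, which shortens the poly(A) tail.

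The 3′ UTRs of the members carried Pumilio elements and long AU-rich elements more often than those of the comparison genes. Neither feature was used to choose the genes, and the difference is given as counts without a test. The windows below show these matches in the sense orientation of the mRNA, from the annotated 3′ UTR of 1 coding transcript per gene (GENCODE M21, genome build GRCm38). Each runs 5′ to 3′ over 30 bases with the match in capitals, and the coordinates are those of the match, which lay in the last exon in every gene shown. The first set shows the nonamer UUAUUUAUU, a core of AU-rich elements, in the 8 members with the most matches or, among those with 1 match, the highest FPKM. In Ppp1r15a 4 matches overlap within a 3′ UTR of 76 bases.
Ppp1r15a (chr7:45522955-45522975, minus strand): uaUUAUUUAUUUAUUUAUUUAUUugaauaa
Med13 (chr11:86270556-86270564, minus strand): ccugcaucucUUAUUUAUUguaaguuuuua
Med13 (chr11:86269573-86269581, minus strand): uuugacuuuuUUAUUUAUUgaauuuucuug
Mat2a (chr6:72433198-72433206, minus strand): uucuaauugcUUAUUUAUUguauucugggg
Zc3h10 (chr10:128542229-128542237, minus strand): uuuuuaaaguUUAUUUAUUuacuaaugguu
Zbtb25 (chr12:76348325-76348333, minus strand): auauggccuuUUAUUUAUUagccaucaagu
Lrsam1 (chr2:32926023-32926031, minus strand): gggggucucaUUAUUUAUUuauaaguagcc
Rfx7 (chr9:72621170-72621178, plus strand): caugcuugacUUAUUUAUUgugauggacac
Chd7 (chr4:8866888-8866896, plus strand): gugcagugcaUUAUUUAUUaucccuaggaa

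The second set shows the Pumilio element UGUANAUA, where N is any base. Phf12 was the most abundant member by the FPKM of the authors and had 3 matches, Lin54 also had 3, and Max had 2. These genes were chosen after their values were seen.
Phf12 (chr11:78030269-78030276, plus strand): uuuggauuuugUGUAAAUAcaucuagugau
Lin54 (chr5:100442657-100442664, minus strand): guaacuuuaaaUGUAGAUAaugcaggcauc
Max (chr12:76937621-76937628, minus strand): acuauuuuguaUGUAAAUAccaagagcgac

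The last set shows the NANOS2 element, which the study derived from cross-linked RNA. It was searched as AUNAANU with G or U as the first N and A or U as the second N. Rictor had the most matches among the members, 4 in a 3′ UTR of 4165 bases, and Mat2a had 3 in 1494 bases. A match shows that the letters are present and is not a measured binding site. The study reports the Rictor mRNA as a NANOS2 target from its cross-linking data, which were not analysed here.
Rictor (chr15:6797910-6797916, plus strand): aacccguguucAUUAAAUgucagcagugcu
Mat2a (chr6:72434148-72434154, minus strand): uaaucaaugacAUGAAUUuuagcuuuugug

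At least 1 Pumilio element was found in 28 of the 54 members (51.9%) and in 379 of 1614 comparison genes (23.5%). The nonamer was found in 9 members (16.7%) and in 82 comparison genes (5.08%), and the NANOS2 element in 21 members (38.9%) and 433 comparison genes (26.8%). The short AU-rich pentamer AUUUA, which lies inside every nonamer match, was about as frequent in both, with 66.7% of members and 62.5% of comparison genes. Among all 7401 genes with a coding transcript and either a half-life or a mean FPKM of at least 20, the shares were 27.0% for the Pumilio element, 7.82% for the nonamer, 37.6% for the NANOS2 element and 68.1% for the pentamer. Without genes whose exons overlap another gene, the nonamer was held by 8.57% of members and 4.96% of comparison genes. With at least 80 FPKM in both lines, the NANOS2 element was held by 26.7% and 23.7%. Elements were searched on the sense strand, and overlaps between different elements were not excluded. Nptn has no annotated 3′ UTR in the transcript used and counts as a member without a match, and 1 comparison gene had no coding transcript.

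Long 3′ UTRs hold more matches. The median 3′ UTR was 957.5 bases in the members and 866 bases in the comparison genes, and the direction of this difference depended on the limits, from -141 to 397.5 bases. Among 3′ UTRs from 500 to below 1500 bases, 13 of 23 members (56.5%) and 134 of 596 comparison genes (22.5%) held a Pumilio element. From 1500 bases upwards it was held by 11 of 16 members (68.8%) and 191 of 479 comparison genes (39.9%), and below 500 bases by 4 of 15 members and 54 of 539 comparison genes. The share with a Pumilio element was thus higher in the members in each of the length classes. Per 1000 bases of 3′ UTR the members held 0.558 Pumilio elements and the comparison genes 0.252. For the nonamer these densities were 0.177 and 0.0522, and for the NANOS2 element 0.544 and 0.323. Of the 13 nonamer matches in the members, 4 were the overlapping ones of Ppp1r15a, each counted separately. The NANOS2 element differed most in the longest 3′ UTRs, with 12 of 16 members and 233 of 479 comparison genes (48.6%), whereas below 500 bases it was held by 1 of 15 members (6.67%) and 41 of 539 comparison genes (7.61%).

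**Figure D1:**
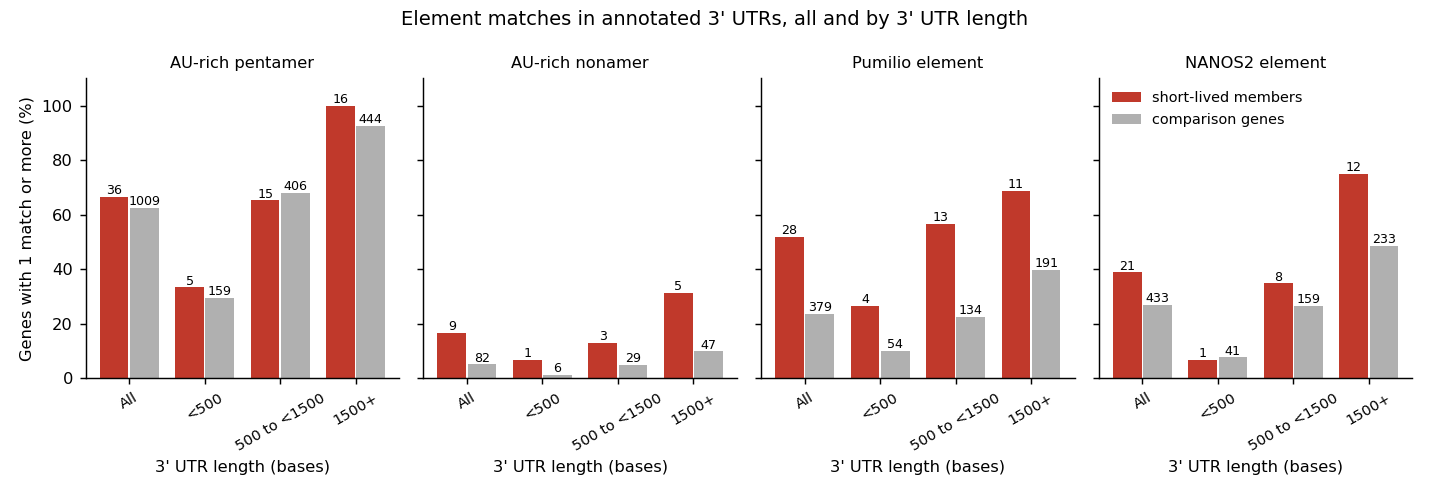
Share of genes (%) with at least 1 match in the 3′ UTR, for 4 elements, in the 54 members (red) and 1614 comparison genes (grey), over all genes and by 3′ UTR length in bases, with the number of genes with a match above each bar. The Pumilio element and the AU-rich nonamer were more frequent in the members in every length class, the AU-rich pentamer differed little (66.7% and 62.5% over all genes), and the short 3′ UTR classes rest on few members.

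Over all 1807 abundant genes with a coding transcript, the share with a Pumilio element fell as the mean half-life of both lines became longer. It was 47.9% of the 96 genes with a mean half-life of up to 150 min, 32.4% of 222 genes from 150 to 200 min, 26.0% of 396 genes from 250 to 300 min and 15.7% of the 370 genes above 400 min. The other elements were also rarer in the last of these classes than in the first. The shares were 41.7% and 15.7% for the NANOS2 element, 12.5% and 1.89% for the nonamer and 72.9% and 48.6% for the pentamer. The median 3′ UTR length also differed between these classes, from 1325.5 bases at 150 to 200 min to 406 bases above 400 min, and its part in the shares was not tested. By role, 7 of the 8 DNA-binding transcription factors among the members and 7 of 10 members in signalling and feedback held a Pumilio element, compared with 3 of 10 in RNA processing and decay. The 8 transcription factors also included 5 with the NANOS2 element. Roles were given to the members only, after their names were seen. No share of comparison genes therefore stands beside the counts by role, and they are not read as a result. None of the 3 elements was found in 19 of the 54 members, Socs3, Xbp1, Raly and Tbrg4 among them.

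The coding sequence had a median of 1870.5 bases in the members and 1492.5 bases in the comparison genes, and the AU content of the 3′ UTR had a median of 53.9% and 53.7%. GC content at the last codon position had a median of 60.1% in the members and 60.8% in the comparison genes. Exons were fewer for the transcript length in the members, with a median of 2.90 exons per 1000 bases of transcript (quartiles 2.14 and 5.00) and 4.25 in the comparison genes (quartiles 2.83 and 5.76). Pop7 had 1 exon, and Socs3, Tmem11, Egr1 and Gpank1 had 2 exons each in the transcript used.

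A larger share of the members than of the comparison genes was in lists of regulatory genes. Of 27 lists of gene families, which count a gene in every list whose symbols it matches, the regulatory lists together held 24 members (44.4%) and 478 comparison genes (29.6%). The housekeeping lists together held 2 members (3.70%), Parp6 and Nob1, and 383 comparison genes (23.7%). Lists were matched by symbol, and 28 members (51.9%) and 756 comparison genes (46.8%) were in none. Their functions do not enter these shares. The comparison genes were more abundant, with a median of 100.3 FPKM (mean of both lines) against 66.0 FPKM in the members. Among genes with a mean below 100 FPKM the regulatory shares were 43.9% and 30.6%, and the housekeeping shares 4.88% and 16.8%. No list was tested, since the members were chosen by their half-life and abundance.

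The largest shares of members were in the lists of transcription factors, with 6 members (11.1%) and 46 comparison genes (2.85%), and of RNA-binding and mRNA turnover proteins, with 6 (11.1%) and 78 (4.83%). Chromatin regulators held 4 members (7.41%) and 59 comparison genes (3.65%), and signalling feedback and early response 3 members (5.56%) and 10 comparison genes (0.619%). Components of the transcription machinery were about as frequent in both (2 members, 3.70%, and 51 comparison genes, 3.16%). Kinases and receptors, cell cycle regulators and the ubiquitin system had 1 member each, which was a lower share than in the comparison genes.

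No member was found in the lists of cytosolic ribosomal proteins, mitochondrial ribosomal proteins, oxidative phosphorylation, proteasome, glycolysis and TCA cycle, aminoacyl-tRNA synthetases, chaperonin, translation factors, splicing factors, nuclear transport, cytoskeleton and motors, membrane traffic, small GTPases, feedback-controlled metabolism or apoptosis. Because lists were matched by symbol, a member with such a function can be missing from them. Arfgap2 of COPI vesicle transport and the splicing regulator Rbm5 are examples. Members were 2.99% of all abundant genes, and these lists held 7 to 63 abundant genes each, so that 0 members in a single list of this size is not read as a result. Of the 403 abundant genes in any housekeeping list 0.496% were members, and of the 554 in any regulatory list 4.33% were. The median half-life of all abundant genes was 272.3 min (mean of both lines). It ranged in the lists without a member from 217.4 min for 9 genes of p53 feedback and apoptosis, 256.1 min for feedback-controlled metabolism and 256.2 min for small GTPases to 546.2 min for 23 genes of oxidative phosphorylation and 613.9 min for 45 cytosolic ribosomal protein genes. For the 66 abundant transcription factors it was 221.5 min, so that most abundant transcription factors were also above the limit.

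**Figure D2:**
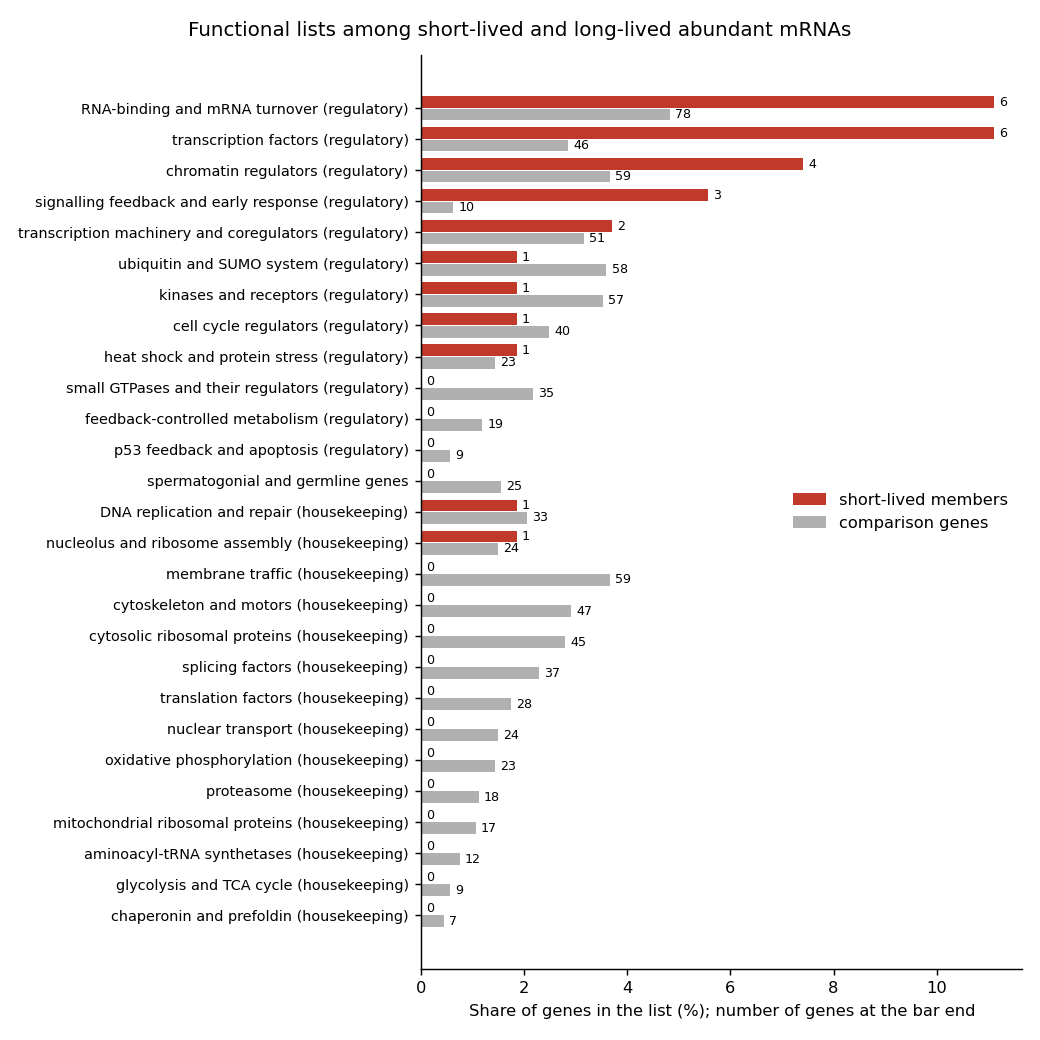
Share (%) of the 54 members (red) and of the 1615 comparison genes (grey) in each of 27 gene lists, grouped as regulatory, germline and housekeeping, with the number of genes at the end of each bar. Transcription factors and RNA-binding proteins each held 6 members, and 13 of the 15 lists at the bottom, from germline genes down, held none.

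The list of spermatogonial and germline genes held 25 comparison genes, 1 gene on different sides of the limit and no member, with a median half-life of 301.6 min for the 26. With members at 2.99% of abundant genes, 0 members in a list of this size is not read as a result either. Id4, Nanos2 and Utf1 were below 40 FPKM and had no half-life, and Bcl6b and Cdh1 were below 40 FPKM in at least 1 line, so that these genes could not be members. Ret, the GDNF receptor kinase, had half-lives of 259.0 min in the TAG/+ line and 243.5 min in the TAG/TAG line. Its co-receptor Gfra1 had 243.8 and 256.6 min, and the transcription factor Zbtb16 had 258.6 and 252.6 min. Foxo1, a factor of SSC maintenance, had 112.0 min in the TAG/+ line and 181.2 min in the TAG/TAG line and so fell on different sides. All 17 spermatogonial markers in the FPKM table were at 1 FPKM or above in both lines, with a sum of 1926 FPKM in the TAG/+ line and 2356 FPKM in the TAG/TAG line. Uchl1 alone had 805.6 and 820.3 FPKM, and the median of the 17 was 56.2 and 101.7 FPKM. The 10 differentiating or meiotic markers summed to 543.2 and 344.7 FPKM, with Rec8 and Sohlh2 the highest. The 14 fibroblast markers summed to 438.1 and 594.3 FPKM, with Fn1 and Sparc the highest. Both were comparison genes, and no member was on any marker list. In bulk RNA, fewer cells of a type and less RNA per cell cannot be told apart.

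Short half-lives were less frequent the more abundant the mRNA was. Among genes with a mean of 10 to 40 FPKM, 222 of 1894 (11.7%) were at or below 150 min in both lines. Among the 1808 abundant genes the share was 6.32% from 40 to 60 FPKM, 3.14% from 60 to 100 FPKM, 2.32% from 100 to 200 FPKM and 0.298% (1 of 336 genes) above 200 FPKM. The gene above 200 FPKM was Phf12, by the FPKM of the authors. The most abundant comparison genes were Eef1a1 (translation elongation), Actb (beta-actin) and Rps10 (ribosome), and Eef1a1 had 9186 FPKM and a half-life of 608.2 min in the TAG/+ line and 5800 FPKM and 746.2 min in the TAG/TAG line. The comparison genes with the longest mean half-life were Ap2a1, Coq9 and Ints4, and Coq9 had 890.8 min in the TAG/+ line and 3671 min in the TAG/TAG line. The former lies beyond the 540 min chase point and the latter beyond the last chase point, 1440 min. The half-lives of Ap2a1 and Ints4 were also beyond 1440 min in both lines. Those with the shortest were Atxn7l2, Fastkd3 and Chd6, which lay between 154.4 and 160.5 min in both lines.

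**Figure D3:**
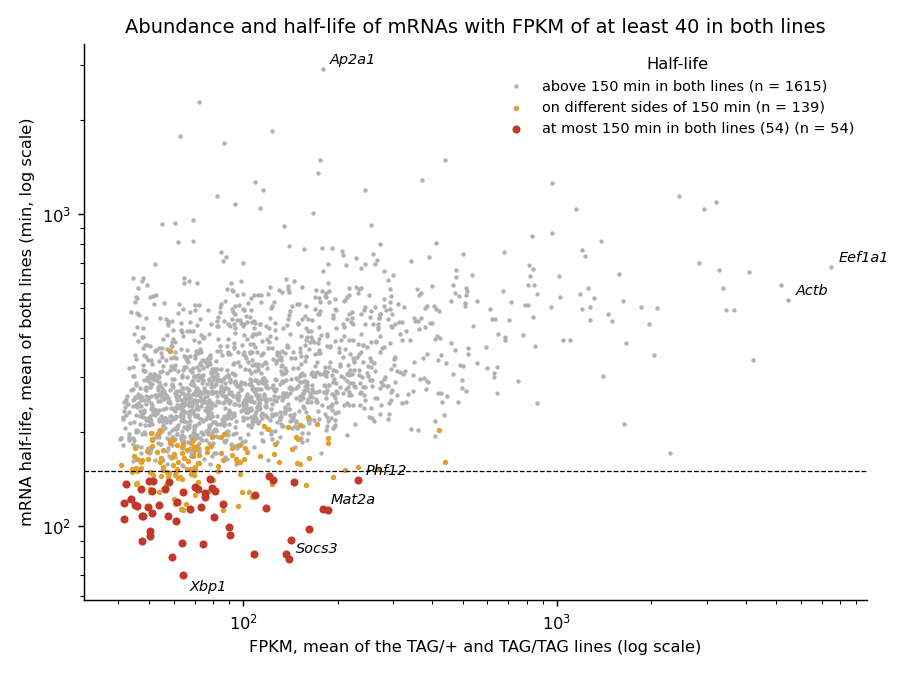
Half-life (min, mean of both lines) against FPKM (mean of both lines), both on log axes, for 1808 genes with at least 40 FPKM in both lines. The 54 members (red) lie below the dashed line at 150 min and, apart from Phf12 at 233 FPKM, below 200 FPKM, whereas the 1615 comparison genes (grey) extend to 7493 FPKM for Eef1a1.

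The half-lives of the members, which are values the choice rested on, ranged from 63.6 to 149.1 min in the TAG/+ line (median 113.9 min) and from 42.97 to 147.6 min in the TAG/TAG line (median 118.9 min). Those of the comparison genes had medians of 283.6 and 292.0 min. Members lay close to the limit: Phf12, Zbtb25 and Axin1 reached 149.1, 147.6 and 147.6 min in their longer-lived line. Just outside were Nktr (150.1 and 82.0 min in the TAG/+ and TAG/TAG lines), Hoxb6 (132.8 and 150.3 min) and 2410002F23Rik (150.5 and 149.4 min). At the abundance limit Brf2, Nob1 and Rictor were just inside, at 40.7, 41.2 and 41.5 FPKM in their lower line. Tyms, Pan3 and Stat2 had short half-lives and were just outside, at 39.6, 39.3 and 38.3 FPKM in their lower line. With 1 fitted half-life per line and no error, genes on either side of a limit cannot be told apart.

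The FPKM of the authors divides reads by the mean length of all annotated transcripts of a gene. The full-length coding transcript is longer than this mean by a median factor of 1.99 in the members and 1.86 in the comparison genes. On the length of the coding transcript, 20 of the 54 members (37.0%) and 1003 of the 1615 comparison genes (62.1%) still had at least 40 FPKM in both lines. They included Phf12, Tbrg4, Mat2a, Raly, Nptn, Ppp1r15a, Socs3, Fam178b, Tmem11, Phf23, Rbm5, Rogdi, Tmem209, Max, Cstf1, Cdca5, Egr1, Pop7 and Med26. By contrast, 7 members were below 20 FPKM in both lines, as Fry was at 11.7 FPKM in the TAG/+ line and 13.8 FPKM in the TAG/TAG line. Exons of 19 members (35.2%) overlapped exons of another gene, 17 of them on the opposite strand, against 30.1% of the comparison genes. Whether reads were counted by strand is not given in the sources used here, and reads of these members and their antisense genes may not be separated.

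Among the transcription factors, Xbp1, the effector of the IRE1 branch of the unfolded protein response, had the shortest mean half-life of all 1808 genes. It was 85.2 min in the TAG/+ line and 54.8 min in the TAG/TAG line, at 61.3 and 66.9 FPKM. Lin54, the DNA-binding subunit of the MuvB complex of cell cycle genes, had half-lives of 100.02 and 93.3 min and 56.7 and 44.2 FPKM. Nr1d1 (REV-ERBα), a haem-responsive repressor of the circadian clock, had 130.4 and 86.4 min and 70.8 and 43.9 FPKM. It was lower in the TAG/TAG line in both measures.

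Max, the obligate partner of MYC proteins, was the most abundant of the transcription factors by the FPKM of the authors. It was at 84.6 FPKM in the TAG/+ line and 87.1 FPKM in the TAG/TAG line, with half-lives of 107.4 and 128.5 min. Sp1, which binds GC boxes, had 143.0 and 133.9 min, and Egr1, an immediate early gene of growth factor signalling, had 145.1 and 135.0 min. Rfx7 (135.5 and 127.7 min) and Zbtb25 (110.5 and 147.6 min) complete the 8. The half-lives of Sp1, Egr1 and Rfx7 differed by 7.80 to 10.1 min between the lines, whereas those of Zbtb25 were 37.2 min apart.

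Chromatin and coregulator genes numbered 10. Phf12, a PHD finger protein of the SIN3 histone deacetylase complex, was the most abundant member by the FPKM of the authors. It was at 212.5 FPKM in the TAG/+ line and 252.7 FPKM in the TAG/TAG line, with half-lives of 149.1 and 132.7 min. On the length of its coding transcript Phf12 had 67.6 and 80.4 FPKM, less than Nptn by the same measure (117 and 143 FPKM). The Nptn transcript used, of 1390 bases, has no annotated 3′ UTR, and a longer one would lower its value. That of Phf12 has 4410 bases. Phf23, another PHD finger protein, had 132.6 and 109.1 FPKM and 145.5 and 144.2 min. Kat14, a subunit of the ATAC acetyltransferase complex, had the shortest mean half-life of this group, with 98.2 and 81.1 min. On the length of its coding transcript, however, Kat14 had 15.4 and 13.1 FPKM, and its exons overlap those of Pet117 on the same strand.

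Med13, which links the kinase module to Mediator, had half-lives of 92.9 min in the TAG/+ line and 115.1 min in the TAG/TAG line, and Med26, a Mediator subunit that recruits elongation factors, had 114.3 and 102.2 min. Emsy, a BRCA2-binding repressor that also joins the SIN3 complex, had 111.3 and 103.4 min. Tnrc18, a BAH domain protein, had 90.6 and 96.5 min. The remodeller Chd7, the histone H2B ubiquitylation adaptor Wac and the RNA polymerase III factor Brf2 were between 105.0 and 134.8 min in both lines.

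In signalling and feedback, Socs3, an inhibitor of JAK-STAT signalling, had the second shortest mean half-life of all abundant genes. It was at 132.7 FPKM and 88.4 min in the TAG/+ line and 147.4 FPKM and 69.4 min in the TAG/TAG line. Ppp1r15a (GADD34), which directs protein phosphatase 1 to eIF2α and so ends the integrated stress response, had nearly the same values in both lines, with 141.9 and 142.7 FPKM and 89.6 and 91.6 min. Axin1, the scaffold of the β-catenin destruction complex, had 74.2 and 65.7 FPKM and 147.6 and 120.8 min.

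Rictor, the defining subunit of mTOR complex 2, had 46.3 FPKM and 109.4 min in the TAG/+ line and 41.5 FPKM and 136.1 min in the TAG/TAG line. Map3k1, a kinase upstream of JNK, had half-lives of 127.4 and 137.3 min. The cofilin kinase Limk2 (98.0 and 118.0 min), the microtubule-associated kinase Mast3 (103.6 and 127.1 min) and the adaptors Bcar1 (111.3 and 122.0 min) and Shb (119.7 and 107.7 min) were between 41.6 and 80.5 FPKM. Ndrg1, which responds to hypoxia and stress, had 111.9 and 147.4 min. Of the 10 genes in this group, 7 had the longer half-life in the TAG/TAG line and 3, Socs3, Axin1 and Shb, the shorter.

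Several members process or degrade RNA themselves. Raly, an RNA-binding protein of the hnRNP C type, had 171.2 FPKM and 124.8 min in the TAG/+ line and 152.8 FPKM and 71.9 min in the TAG/TAG line. Tbrg4, a mitochondrial RNA-binding protein of the FASTK family, was the second most abundant member by the FPKM of the authors. It had 169.9 and 201.9 FPKM and half-lives of 122.8 and 102.3 min.

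Smg1, the kinase of nonsense-mediated decay, had 85.9 FPKM in the TAG/+ line and 64.8 FPKM in the TAG/TAG line, with half-lives of 141.6 and 114.6 min. Its coding sequence was the longest among the members, at 10977 bases over 63 exons. The splicing regulator Rbm5 had 130.5 and 122.4 min, the cleavage stimulation factor subunit Cstf1 had 143.0 and 119.8 min, and the zinc finger protein Zc3h10 had 106.2 and 69.7 min. Nob1, the endonuclease that finishes 18S ribosomal RNA, had 108.9 and 101.8 min, Pop7, a subunit of RNase P and RNase MRP, had 138.0 and 141.8 min, and Rsrp1 had 96.9 and 123.5 min. The half-lives of Zc3h10 lay 36.4 min apart and those of Pop7 lay 3.73 min apart.

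Members that act in the cytoskeleton, mitosis, cilium or membranes numbered 11. C2cd3, which builds the distal end of centrioles, had the third shortest mean half-life of all abundant genes, with 87.7 min in the TAG/+ line and 71.6 min in the TAG/TAG line. Cdca5 (sororin), which protects sister chromatid cohesion, had 124.1 and 110.1 min, and Spag5 (astrin), a spindle and kinetochore protein, had 122.4 and 111.4 min. Fry, a large scaffold protein of cell polarity and mitosis, had 142.9 min in the TAG/+ line and 42.97 min in the TAG/TAG line. The latter was the shortest half-life of any member in either line.

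The nuclear envelope protein Tmem209 had 112.3 min in the TAG/+ line and 87.1 min in the TAG/TAG line. Nckap5l, a microtubule-binding protein, had 108.0 and 121.3 min at 117.4 and 119.2 FPKM. The adhesion protein Nptn (141.7 and 136.2 min) and the mitochondrial membrane protein Tmem11 (139.2 and 142.8 min) were at 108.0 FPKM or above in each line. Wipf2, which promotes actin assembly through WASP proteins, had 144.5 and 129.3 min, Arfgap2 of COPI vesicle transport 118.9 and 144.5 min, and the ubiquitin ligase Lrsam1 108.1 and 131.7 min.

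The remaining 5 members included Mat2a, the enzyme that makes S-adenosylmethionine, the methyl donor of methylation reactions. Mat2a, one of the most abundant members, was at 209.3 FPKM in the TAG/+ line and 149.8 FPKM in the TAG/TAG line, and its half-lives of 113.6 and 113.5 min were nearly the same. Parp6, a mono-ADP-ribosyltransferase, had 106.8 and 69.9 min. Rogdi had 79.3 and 83.4 min, Fam178b 63.6 and 99.2 min, and Gpank1 131.4 and 100.2 min.

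**Figure D4:**
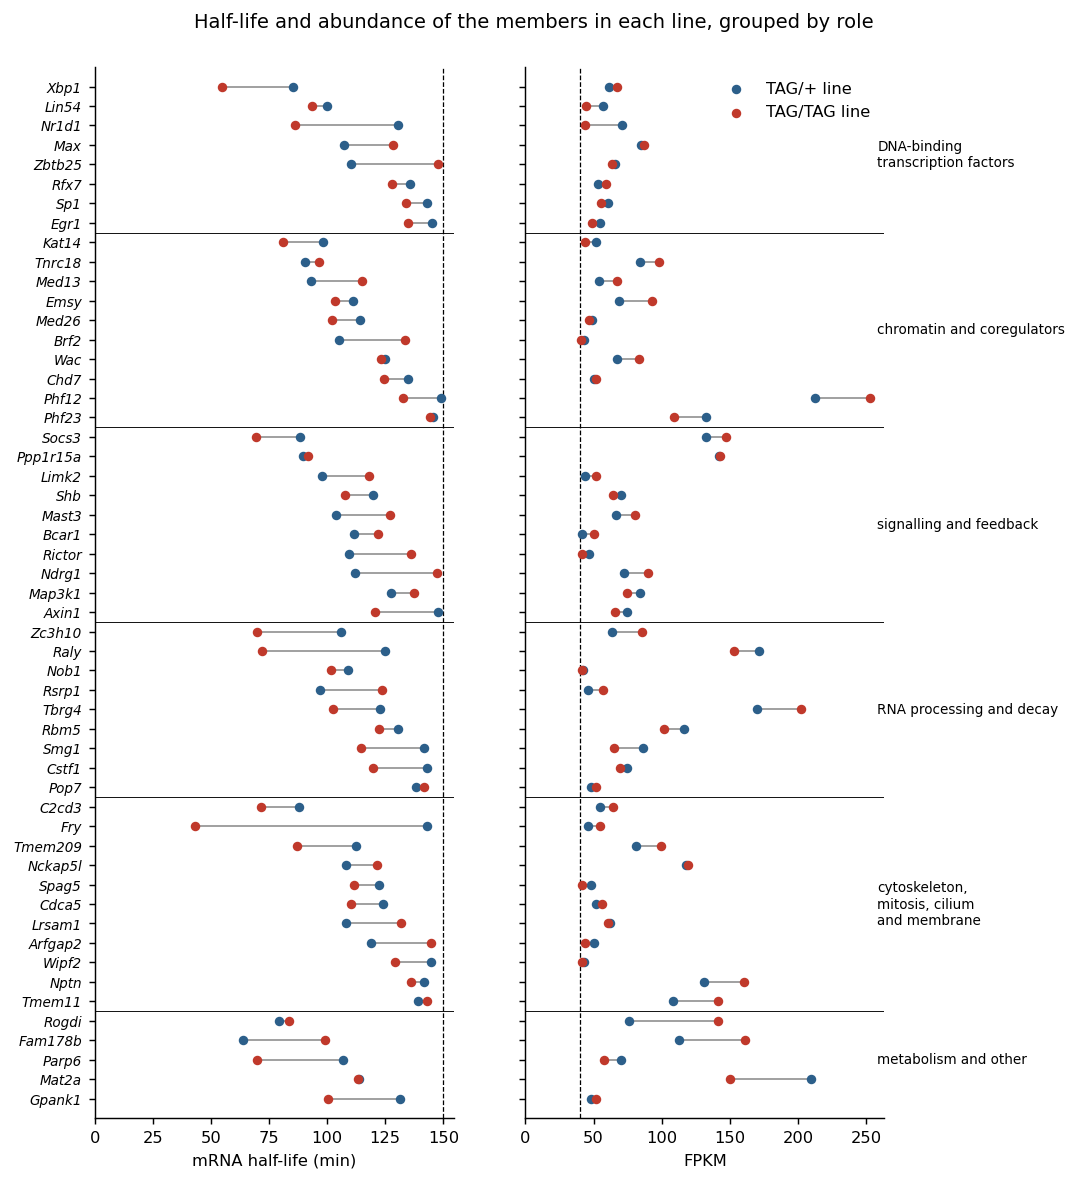
Half-life (min, left) and FPKM (right) of each member named here in the TAG/+ line (blue) and the TAG/TAG line (red), 1 value per line, grouped by role and ordered by mean half-life, with dashed lines at the limits of 150 min and 40 FPKM. Most pairs of points lie close together, although for half-life the limit of 150 min in both lines confines how far they can differ. The widest half-life gap is that of Fry (142.9 and 42.97 min).

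If decay is first order and levels are steady, FPKM times ln 2 divided by half-life gives the FPKM lost and replaced per minute. This value, which follows from what chose the genes, was highest in Socs3 (1.23 FPKM per min), followed by Fam178b (1.17), Tbrg4 (1.14), Phf12 (1.14), Raly (1.14), Mat2a (1.10) and Ppp1r15a (1.09). Its median was 0.407 FPKM per min in the members and 0.242 FPKM per min in the comparison genes, although the comparison genes reached 9.29 FPKM per min.

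Between the lines, FPKM differed by more than 1.5-fold in few members. Rogdi was higher in the TAG/TAG line (75.7 FPKM in the TAG/+ line and 141.5 FPKM in the TAG/TAG line, 600 and 1207 reads), and Nr1d1 was lower by the same criterion (1353 and 903 reads). This is 1 of 54 members in each direction, whereas over the 1808 abundant genes 5.48% were higher and 7.13% were lower in the TAG/TAG line. The next largest ratios of the TAG/TAG to the TAG/+ line were 1.43 for Fam178b, 1.35 for Emsy and Zc3h10 and 1.31 for Tmem11, and the next smallest were 0.716 for Mat2a, 0.754 for Smg1 and 0.780 for Lin54. The median log2 difference (TAG/TAG minus TAG/+, pseudocount 0.1) was 0.03 in the members and -0.02 in the comparison genes.

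Half-lives were more than 1.5-fold shorter in the TAG/TAG line in 6 members (11.1%): Fry, Raly, Xbp1, Parp6, Zc3h10 and Nr1d1. They were more than 1.5-fold longer in 1 member (1.85%), Fam178b. Over the 1808 abundant genes 6.31% were shorter and 6.53% were longer in the TAG/TAG line. The limit of 150 min in both lines confines how far a member can differ, and 92 of the 139 genes on different sides of the limit differed by more than 1.5-fold. With 1 half-life per line these differences have no replicate check. Half-life was shorter in the TAG/TAG line in 34 of the 54 members (63.0%) and in 772 of the 1808 abundant genes (42.7%). It was shorter in 648 of the 1615 comparison genes (40.1%) and in 90 of the 139 genes on different sides (64.7%). The same half-lives formed these groups, so that the shares are not read as a difference between the lines.

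Members were short-lived beside many of the proteins they work with. For 32 members, partners in the same complex or pathway or members of the same family were looked up, chosen after the names of the members were known. Of 138 such genes with half-lives, 108 (78.3%) were above 150 min in both lines and 13 (9.42%) were at or below 150 min in both. Over all 5806 genes with half-lives these shares were 69.5% and 12.9%, so that the share of short-lived genes among partners was not above that of all genes. A member is shorter than most genes by its choice, and the pairs are therefore a description.

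Med12 of the Mediator kinase module had 232.4 min in the TAG/+ line and 234.0 min in the TAG/TAG line, whereas Med13 was at 92.9 and 115.1 min. Raly stood beside Hnrnpc with 398.2 and 394.6 min. The 5 destruction complex partners of Axin1 with a half-life were longer-lived in both lines, from Gsk3b (187.3 and 192.9 min) to Ctnnb1 (368.7 and 329.2 min). The cohesin subunits Smc1a, Smc3 and Rad21 were at 292.5 min or above in both lines, against 124.1 and 110.1 min for their regulator Cdca5.

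Some relatives were short-lived as well, although in the families named here they were not the majority. The stress factors Atf4 (92.4 min in the TAG/+ line and 99.8 min in the TAG/TAG line) and Ddit3 (106.0 and 104.7 min) were at or below 150 min like Xbp1, and neither has an FPKM in the table. The other measured genes of that set, Hspa5 (304.5 and 335.2 min) and Sel1l (206.8 and 280.6 min), were longer-lived. Of 6 measured relatives of Socs3, Cish (101.2 and 81.3 min) and Socs6 (106.5 and 88.3 min) were below the limit in both lines, Socs5 (217.9 and 285.3 min) was above it in both, and Socs1, Socs2 and Socs7 were on different sides. Of 5 measured mTOR complex genes beside Rictor, Mlst8 had 96.0 and 96.1 min, Rptor, the defining subunit of mTOR complex 1, had 61.3 and 196.1 min, and Mtor, Mapkap1 and Prr5 were at 175.1 min or above in both lines.

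**Figure D5:**
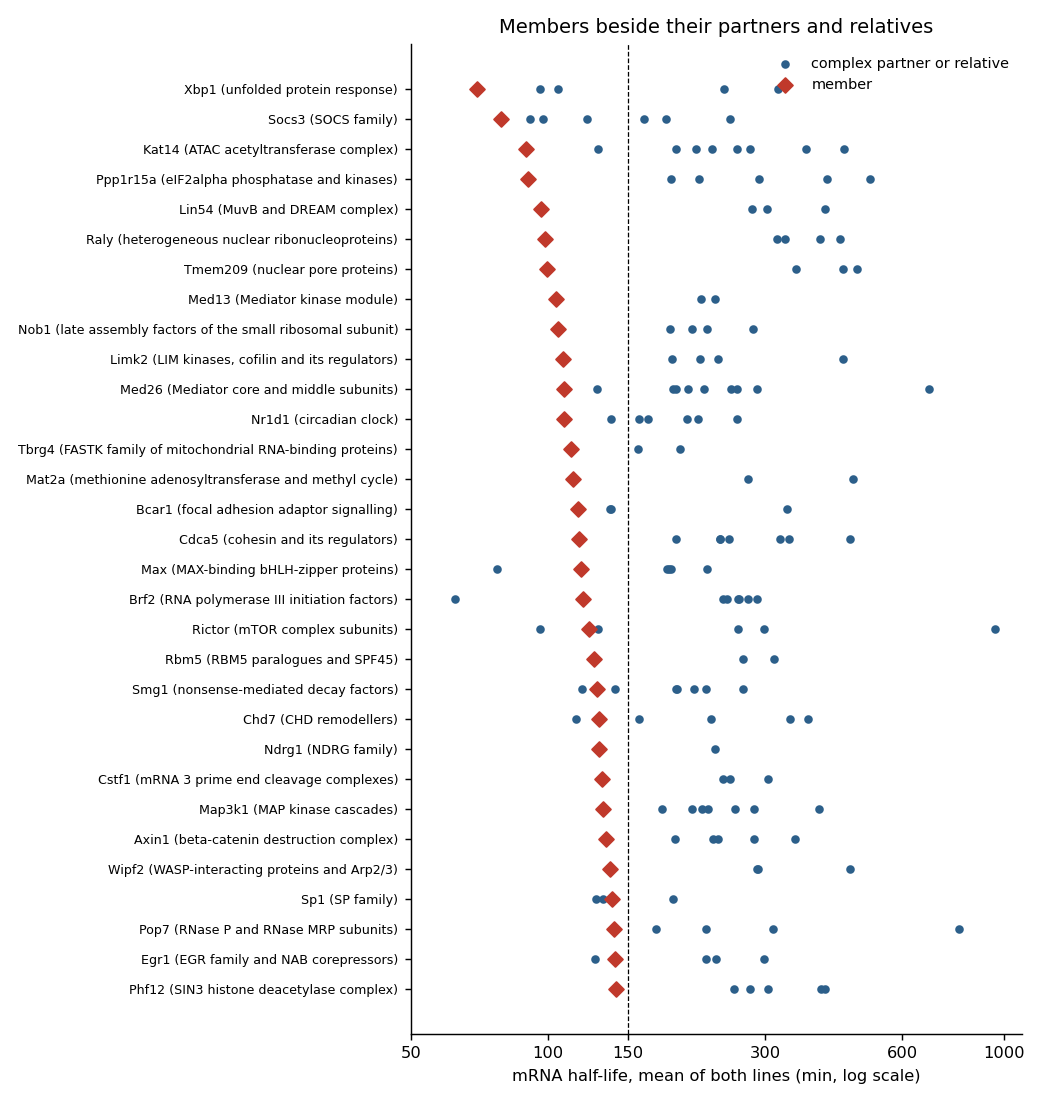
Half-life (min, mean of both lines, log axis) of 31 members with at least 1 measured partner (red diamonds) and of their complex partners or relatives (blue points), with a dashed line at 150 min. Most partners lie to the right of the line (108 of 138 above 150 min in both lines), and several members, such as Socs3, Rictor, Max and Smg1, also have partners to its left.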

How the data were processed

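RNA-seq was performed on ribosomal RNA-depleted RNA with 50 bp single-end reads. The submitters' processing notes name kallisto and DESeq2, without versions. The FPKM values were deposited by the authors, in a table whose columns are assigned to the TAG/TAG and TAG/+ lines by their names. Division by the mean transcript length in GENCODE M21 gave whole reads (within 0.02) for 100% of genes above 0, which sum to 10977831 reads (TAG/+) and 11656606 reads (TAG/TAG). Members had 449 to 4057 reads and 458 to 4162 reads. A pseudocount of 0.1 was added before log2 ratios were taken. The half-lives, in minutes, were deposited by the authors. Cells received 100 µM 4SU, and conversions in 3′ end libraries were counted with SlamDunk. The authors then collapsed technical replicates and used nls for the decay fit, which gives 1 half-life per gene and line with no error or depth. CRAC libraries (2 of a TAG/TAG line and 2 of a control line) were not analysed here.

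No test was run: each line is 1 sample, and the members were chosen by the values that would be compared. Counts, shares, medians and quartiles are given instead, and a difference between the lines was counted beyond 1.5-fold. The members, gene lists, elements and alternatives were chosen with earlier results of these data known, and roles and partners after the member names were seen. Genes named were the 12 most abundant and the 12 shortest-lived members, up to 6 per list, those with the 5 largest ratios between lines in each direction, those nearest the limits, and the extremes of the comparison genes. The other members, printed once, and the partners fall outside this rule and were named after their values were seen. Individual values of 1 member and 1 gene with a left-out symbol are not reported here, although counts and medians include both. The transcript used was the APPRIS principal one, or, where none is marked, that with the longest 3′ UTR, in GRCm38. The FPKM annotation is not given in the sources used here. Alternatives were other limits, 1 line alone, the mean of the lines, no symbol left out, mean FPKM from 40 to 100, the longest 3′ UTR, densities, a pseudocount of 1 and centring. FPKM on the coding transcript length and the removal of overlapping genes were added after seeing the data. Scripts were tested on simulated data, in which whole reads were recovered for 100% of 13613 genes of the simulated TAG/+ library. Python 3.11.15, numpy 2.4.6, pandas 2.3.3, scipy 1.17.1 and matplotlib 3.10.9 were used.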

Additional observations from a re-analysis of the deposited data

How the results depend on the processing

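The members had a higher share than the comparison genes of the Pumilio element, the AU-rich nonamer and the NANOS2 element. Their share of the regulatory lists was also higher, and that of the housekeeping lists was lower. Each of these directions held under every alternative run for these shares. For the NANOS2 element, however, the share of members (38.9%) was close to that of all 7401 genes (37.6%). Among the 139 genes on different sides of the limit it was 41.0%. Ratios of members to comparison genes were 2.21 for shares and 2.22 for densities of the Pumilio element, 3.28 and 3.39 for the nonamer and 1.45 and 1.69 for the NANOS2 element. The nonamer density counts 4 overlapping matches of Ppp1r15a separately. Of 115 values under alternatives, 86 moved by less than the counting error or the spread between single lines. The limits set the number of members, which was 15 (1.57% of abundant genes) at 80 FPKM, 19 (1.05%) at 120 min, 124 (6.86%) at 180 min, 115 (5.69%) with limits on the mean of both lines, and 116 to 169 (5.78% to 8.57%) in 1 line alone. With FPKM on the length of the coding transcript it was 21 (1.94%), and without genes that overlap another gene 35.

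The difference in median 3′ UTR length (members minus comparison genes) was 396 bases at 30 FPKM, 298 bases at 180 min, 242.5 to 397.5 bases in 1 line alone, -141 bases at 80 FPKM and -28.5 bases on the coding transcript length, so that its direction depends on the limits. The difference in the share with a Pumilio element was 13.2 percentage points at 80 FPKM, 42.8 points without overlapping genes and 11.9 to 21.2 points in 1 line alone. The nonamer difference, 11.6 points as reported, was 3.61 points without overlapping genes, 5.69 points on the mean of both lines and 4.51 to 8.34 points in 1 line alone. The NANOS2 element difference, 12.1 points as reported, was 2.75 points on the coding transcript length, 2.97 points at 80 FPKM and 3.86 points at 120 min. For transcription factors the difference was -3.27 points at 120 min, where no listed factor was left, although Xbp1 and Lin54, which that list does not hold, were. For the regulatory lists it was 29.2 points on the coding transcript length. The median log2 FPKM difference between the lines was 0.15 at 80 FPKM and at 120 min, and -0.017 to 0.099 in 1 line alone. Where no value is given beside it, the cause was not tested. No paired analysis was possible because each line has 1 FPKM and 1 half-life per gene. Half-lives carry no error, and a difference between the lines has no replicate check.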

Other observations

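A further 10 genes met both limits but carry a symbol that was left out. Rnf25, an E3 ubiquitin ligase, had 178.3 FPKM and a half-life of 39.6 min in the TAG/+ line and 154.4 FPKM and 53.3 min in the TAG/TAG line, both shorter than those of Xbp1. Zfp36l1, which binds AU-rich elements and promotes decay, had 106.5 FPKM and 126.6 min in the TAG/+ line and 109.5 FPKM and 130.8 min in the TAG/TAG line. The zinc finger genes Zfp513, Zfp703 and Zfp787, the deubiquitinases Usp10 and Usp32, the transporter Slc7a6 and the ubiquitin ligase Trim33 were also among them, between 87.3 and 149.1 min in both lines.

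Of the 139 abundant genes on different sides of 150 min, 49 were at or below it in the TAG/+ line only and 90 in the TAG/TAG line only. The widest gap was that of Inpp5b, with 129.9 min in the TAG/+ line and 598.6 min in the TAG/TAG line. Bckdha had 264.9 and 62.3 min, Napa 311.4 and 76.4 min, and Xrcc1 287.2 and 83.3 min. FPKM differed by less than 1.5-fold in each of these genes. A total of 908 genes with at least 40 FPKM in both lines had no half-life, and whether they are short-lived was not measured here.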
